A study of Mus musculus with 14 samples.

Results

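The genes described here encode the signal-transducing chains of the B cell antigen receptor, a membrane protein of its coreceptor, and the kinases, adaptors and phospholipase that act directly behind it. The list holds 9 genes, Cd79a, Cd79b, Cd81, Syk, Lyn, Btk, Blnk, Plcg2 and Bank1. It was chosen by function, but with earlier results of these data known, so counts among its genes are descriptions of these genes. A gene was measured where a probe set of the array was annotated with its symbol alone. That held for 8 of the 9 genes, with 11 probe sets, out of 18193 genes in all. Lyn had no such probe set in the annotation used and is not analysed here. Syk had 4 probe sets and each other gene had 1. The brightest probe set stood for a gene.

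The antigen receptor is a membrane immunoglobulin bound to a heterodimer of CD79A and CD79B, whose cytoplasmic tails carry the tyrosine motifs that SRC-family kinases phosphorylate when antigen is bound. SYK docks on these motifs and phosphorylates the adaptor BLNK, which brings BTK and phospholipase C gamma 2 together, and the phospholipase then produces the messengers that release calcium and activate protein kinase C. In a spleen, naive and memory B cells carry the receptor at the surface, germinal center cells select on it, and plasma cells turn to secreting immunoglobulin.

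RNA was taken from splenic B cell subsets sorted from male C57Bl/Ka mice and was amplified before hybridization to 14 Affymetrix arrays. Naive cells (3 arrays) came from unimmunized mice 4 to 8 weeks old and were B220 positive, CD23 positive, IgM low, IgD positive and lambda light chain positive. The other subsets came from mice given NP-CGG, a hapten coupled to a protein carrier, in alum. Germinal center cells (3 arrays) were taken at day 14 from mice 6 to 10 weeks old and were B220 positive, NP-binding, CD38 low and PNA positive. Plasma cells (4 arrays) were taken at day 7 from mice 5 to 9 weeks old and were B220 low, syndecan-1 positive, NP-binding and PNA negative. Memory cells (4 arrays) were taken at 10 to 12 weeks from mice 14 to 18 weeks old, and were B220 positive, NP-binding, CD38 high, and negative for PNA, IgM and IgD. Cells bearing T cell markers (CD3, CD4, CD8, CD5), the erythroid marker Ter119, or the myeloid markers CD11b and Gr-1 were removed in each sort. The labelled dose was 100 µg for the immunized arrays other than plasma array 1, whose label states no dose. Age and time after immunization moved together across the subsets and cannot be told apart from the subset. The labels do not say that arrays of a subset came from separate animals, so a p-value reflects only how these samples spread, and that spread may be technical. In such bulk samples, fewer cells of a type and less RNA per cell cannot be told apart.

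The values are deposited linear intensities, and a fold change is a difference of log2 intensities. The background of an array was its brightest unspiked bacterial control, between 11.0 and 16.1, and 52.7% to 66.9% of genes lay above it. The labels were set against marker genes, not all of which were restricted to 1 subset. Rgs13, a germinal center gene, had a mean intensity of 1635 in germinal center cells and 15.3 or less elsewhere, Prdm1, which encodes the plasma cell regulator BLIMP1, had 521 in plasma cells and 20.2 or less elsewhere, and Cd80, a memory cell surface marker, had 67.0 in memory cells and 11.7 or less elsewhere. Fcer2a, which encodes the CD23 of the naive gate, was at 1682 in naive, 709.6 in memory, 252 in germinal center and 13.5 in plasma cells. The proliferation gene Mki67 was at 6850.3 in germinal center and 5813 in plasma cells, Nt5e, listed for memory cells, at 101 in germinal center and 95.5 in memory cells, and Klf2, listed for naive cells, at 799 in naive and 719 in memory cells. The B cell gene Ms4a1, which encodes CD20, was at 7963 in naive and 9162 in memory cells, 5639 in germinal center cells and 764 in plasma cells. Of the myeloid markers, 13 of 14 were measured, and Itgam, Cd14, S100a8 and S100a9 lay above background on no array. Csf1r, Adgre1 and Cd300lf lay above it on every array, and Cd68 on every plasma array, with a mean of 20.5. Of 11 T and NK markers, 6 lay above background on every plasma array and 3 on none. On every naive, germinal center and memory array it was 4, 5 and 5 of them. Thy1 of that list was at 29.1 in plasma cells and 10.8 or less elsewhere. Cd2 went the other way, at 719 in naive, 331 in memory, 77.6 in germinal center and 31.5 in plasma cells. Flt3, listed for dendritic cells, was at 213 in germinal center cells and 35.5 or less elsewhere. A measure of RNA quality moved with a subset: the signal of the 3' actin control over that of the middle one was 4.39 to 5.30 in naive, 6.11 to 17.6 in germinal center, 5.47 to 6.91 in plasma and 4.15 to 5.33 in memory arrays. The same ratio for the GAPDH control was 9.44 to 12.0, 8.23 to 10.9, 5.45 to 8.41 and 11.0 to 13.0 in that order, so plasma arrays held the lowest values and overlapped with germinal center arrays.

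Read by subset, the 8 genes gave different patterns. Bank1 was lower in germinal center and lowest in plasma cells, Cd79b and Syk were lower in both, Cd81 and Btk were lower in germinal center cells, Blnk was highest in plasma cells, Plcg2 was called only between plasma and memory cells, and Cd79a was measured close to background. The germinal center calls of Cd79b, Syk and Btk were lost with the actin ratio as a covariate. That of Syk was made by its brightest probe set only. In germinal center against naive cells 5 of the 8 genes fell and 0 rose, where 11.1% of all genes were called lower and 8.37% higher. In plasma against naive cells 4 fell, Cd79a near background among them, and 0 rose, against 16.1% lower and 14.2% higher among all genes. In memory against naive cells 0 fell and 1 rose, against 3.26% lower and 2.31% higher. Calls here mean an adjusted p below 0.05 in a limma fit over 18193 genes and 14 arrays, with Benjamini-Hochberg adjustment within a comparison.

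The same arrays also give the comparisons among the immunized subsets, which share samples with those above. In memory against germinal center cells 5 of 8 genes rose and 0 fell, against 11% higher and 11.5% lower among all genes. In plasma against germinal center cells 2 rose and 1 fell, against 11.2% higher and 12.6% lower. In plasma against memory cells 6 fell, again with Cd79a near background among them, and 1 rose, against 16% lower and 17.2% higher. The median fold change of the 8 genes against naive cells was -1.08 in the germinal center subset, -0.83 in plasma cells and -0.10 in memory cells, where the median over all genes was 0.06, 0.06 and -0.03. Over the 6116 genes with a mean log2 intensity of at least 6 that median was -0.20, -0.25 and -0.20, so a fold change near these values lies at the general shift of bright genes. Over all genes 43%, 46.8% and 41.5% of these calls against naive cells were higher. Centring arrays on bright genes made that 57.6%, 67.4% and 68.2%, centring on the median of all genes 30.2% and 34.1% in the first pair, and quantile normalization 55.2% in memory cells.

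**Figure D1:**
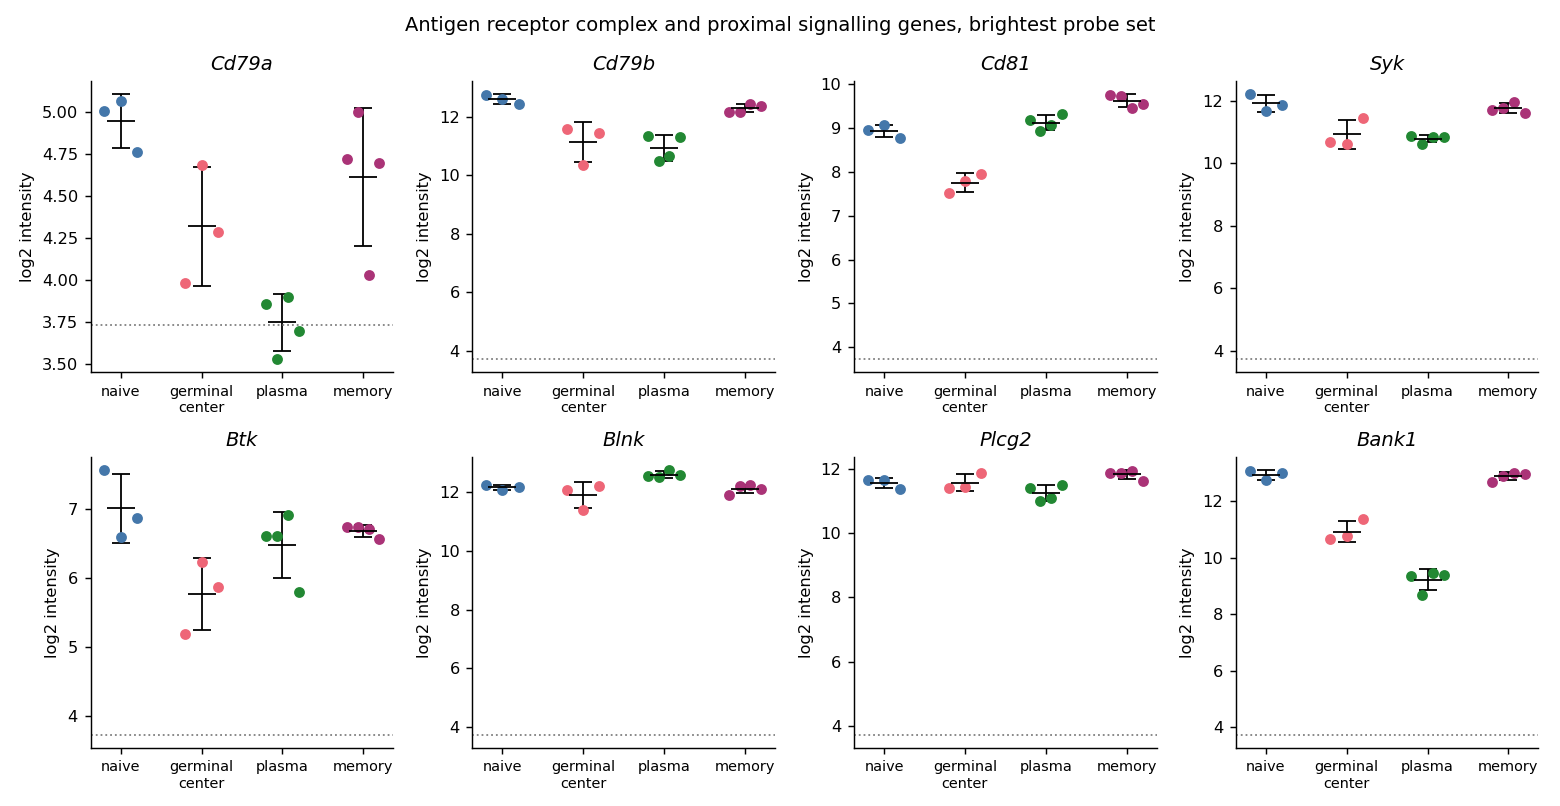
Log2 intensity (vertical axis, a separate range in each panel) of the brightest probe set of each measured gene, with 1 point per array, the subset mean as a wide bar and the SD as error bars, for 3 naive, 3 germinal center, 4 plasma and 4 memory arrays. The dotted line is the mean background of the 14 arrays. Bank1 steps down from naive to germinal center to plasma cells, Cd81 is lowest in germinal center cells, and Cd79a lies close to the background throughout.

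**Figure D2:**
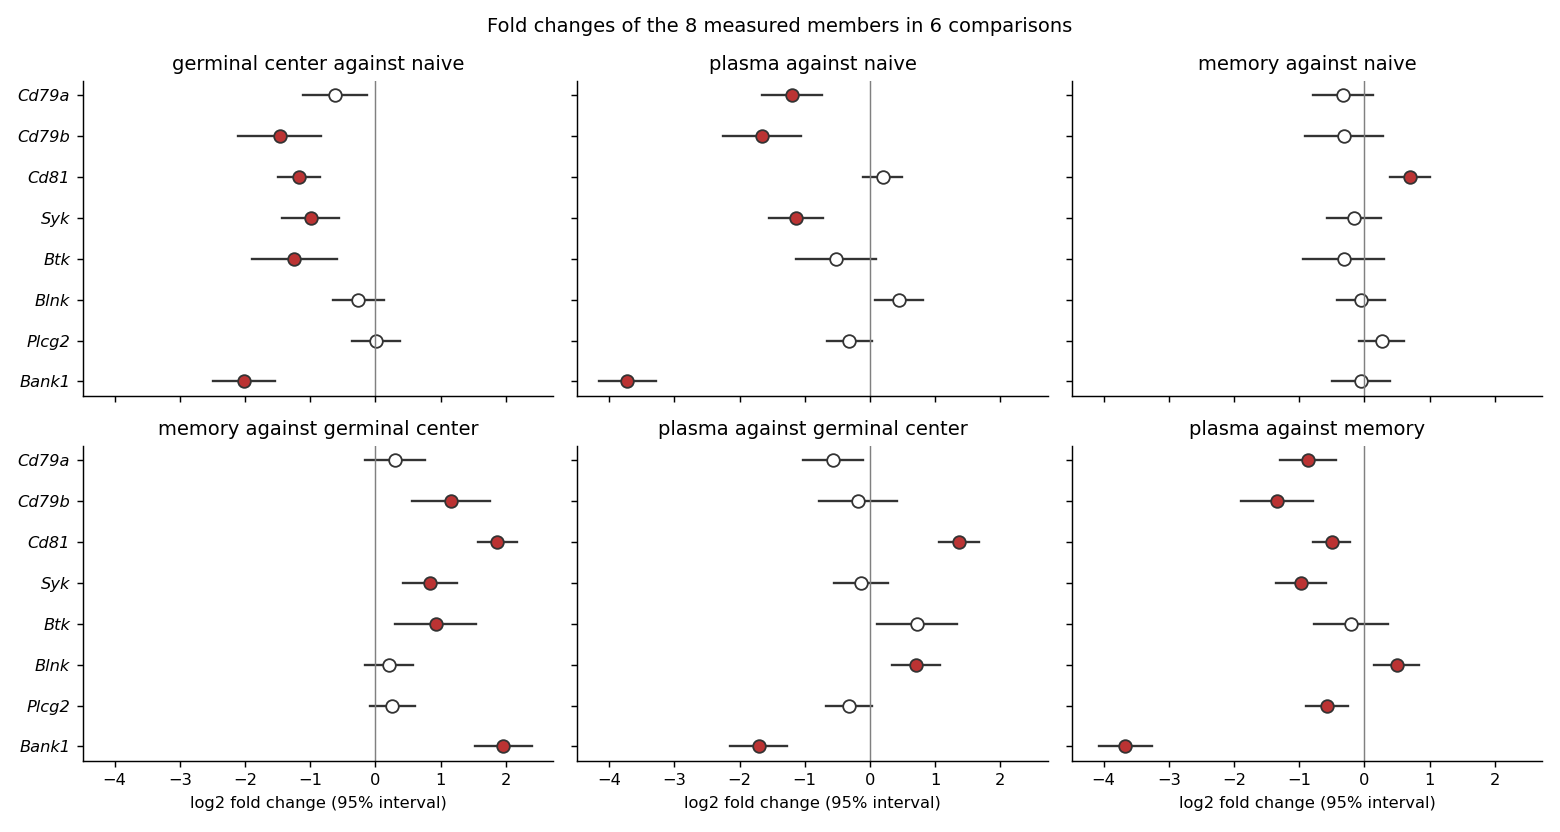
Log2 fold change (horizontal axis) of the 8 genes in 6 comparisons, with the 95% interval as a line. Filled points passed an adjusted p under 0.05 in the limma fit, and open points did not. In memory against naive cells only Cd81 of the 8 is filled.

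The receptor's signal chains come first. Cd79b (chromosome 11, 106311341 to 106314562 in the RefSeq annotation of GRCm38.p6) encodes CD79B, also called Ig beta. Its intensity on the naive arrays was 6946, 6321 and 5561, and on the memory arrays 4631, 4638, 5563 and 5341. On the germinal center arrays it was 3096, 1310.2 and 2819.6, and on the plasma arrays 2613, 1427, 1611 and 2539.

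Every germinal center and plasma array of Cd79b thus lay below every naive and memory array, while naive and memory arrays overlapped, as did germinal center and plasma arrays. Cd79b fell by 1.47 ± 0.30 (SE) in germinal center cells (limma, adjusted p = 0.00253) and fell by 1.66 ± 0.28 in plasma cells (adjusted p = 0.00032) against naive cells. It rose by 1.16 ± 0.28 in memory against germinal center cells (limma, adjusted p = 0.00732) and fell by 1.35 ± 0.26 in plasma against memory cells (adjusted p = 0.000813). Memory and naive cells differed by -0.31, with a 95% interval of -0.91 to 0.28 (limma, adjusted p = 0.659), and plasma and germinal center cells by -0.19, with an interval of -0.79 to 0.41 (adjusted p = 0.708). The order of the subset means was naive 6250.2, memory 5026, germinal center 2253 and plasma 1976, in which the first pair and the last pair did not differ beyond their spread.

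The germinal center values of Cd79b stood beside unequal actin ratios: array 2, with the highest ratio of 17.6, had the lowest intensity, 1310.2, and arrays 1 and 3, with ratios of 10.1 and 6.11, had 3096 and 2819.6. With the log2 actin ratio as a covariate in the fit, the Cd79b fold change for germinal center against naive cells was -0.72 (limma, adjusted p = 0.375) and that for memory against germinal center cells 0.37 (adjusted p = 0.707), so both calls were lost. The ratios of the germinal center arrays, 6.11 to 17.6, and of the naive arrays, 4.39 to 5.30, did not overlap, so this measure and the subset can be told apart only through the spread within subsets.

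Cd79a encodes CD79A, also called Ig alpha, the partner of CD79B. The only probe set annotated with Cd79a alone was dim: it lay above background on 12 of 14 arrays and between 11.6 and 33.5 on all of them, so its fold changes are those of a signal near background. It was at 32.2, 33.5 and 27.2 on the naive arrays and at 26.3, 32.1, 16.4 and 25.9 on the memory arrays. It was at 15.8, 25.8 and 19.5 on the germinal center arrays and at 14.5, 11.6, 14.9 and 13.0 on the plasma arrays, of which 2 lay above background.

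The plasma arrays of Cd79a lay below those of every other subset, and the naive arrays above those of germinal center and plasma cells. Cd79a fell by 1.20 ± 0.21 in plasma against naive cells (limma, adjusted p = 0.000559) and fell by 0.86 ± 0.20 against memory cells (adjusted p = 0.00332). Its fold change of -0.63 ± 0.23 in germinal center against naive cells did not pass (limma, adjusted p = 0.0722, interval -1.12 to -0.13), although these arrays did not overlap. It passed in 3 alternatives: with arrays centred on the median of all genes, at -0.77 (limma, adjusted p = 0.0249), without germinal center array 2, at -0.81 (adjusted p = 0.0321), and without memory array 3 (adjusted p = 0.0286). The difference of -0.57 between plasma and germinal center cells (limma, adjusted p = 0.0716) passed without germinal center array 1, at -0.74 (adjusted p = 0.0329), and without memory array 3 (adjusted p = 0.0269). The order of the subset means was naive, memory, germinal center and plasma, and no neighbouring pair in that order passed the test.

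The region before the start of Cd79a is printed because this gene's early B cell promoter is a textbook case of control by ETS-family and EBF1 proteins. Bases in capitals mark an AGGAAGT sequence, a core recognized by ETS proteins, 55 to 49 bases before the annotated start. They mark a sequence match only and are not taken to be the known ETS site of this promoter. The EBF1 core searched here, the exact sequence CCCNNGGG, had 0 matches in this window. Sites that depart from that sequence are missed by this search, so it does not show that an EBF1 site is absent. The window is chr7:24897247-24897496, plus strand, GRCm38.p6, from RefSeq.
Cd79a: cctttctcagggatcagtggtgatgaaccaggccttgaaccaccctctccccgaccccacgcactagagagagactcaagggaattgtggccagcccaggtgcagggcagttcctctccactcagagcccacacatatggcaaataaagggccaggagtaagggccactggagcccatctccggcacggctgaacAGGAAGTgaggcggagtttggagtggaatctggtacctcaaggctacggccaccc

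AGGAAGT was searched on both strands and occurs in the 250 bases before 7.69% of 32851 annotated starts, and in 2 of the 7 members with a window, Cd79a and Blnk. A match is a description of the sequence, and no binding was measured here. The motifs were chosen with these sequences in view.

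Cd81 (chromosome 7, 143052750 to 143067930) encodes a tetraspanin that joins CR2 in the coreceptor and lowers the threshold for signalling. Its intensity was 184, 222 and 246 on the germinal center arrays and 492, 532 and 438 on the naive arrays. It was 576, 486, 533 and 642 on the plasma arrays and 866, 849, 704 and 750.5 on the memory arrays.

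Germinal center arrays of Cd81 were the lowest and memory arrays the highest, with no overlap of either with another subset, while naive and plasma arrays overlapped. Cd81 fell by 1.17 ± 0.15 in germinal center against naive cells (limma, adjusted p = 5.71e-05) and rose by 0.70 ± 0.14 in memory against naive cells (adjusted p = 0.0092), the 1 call among the 8 genes in that comparison. It rose by 1.87 ± 0.14 in memory against germinal center cells (limma, adjusted p = 2.82e-07) and by 1.36 ± 0.14 in plasma against germinal center cells (adjusted p = 4.42e-06), and fell by 0.50 ± 0.13 in plasma against memory cells (adjusted p = 0.00755). Plasma and naive cells differed by 0.20, with an interval of -0.11 to 0.50 (limma, adjusted p = 0.339). The order was therefore memory 789.6, plasma 557, naive 486 and germinal center 216, and in it the plasma and naive means did not differ beyond their spread. The call in memory against naive cells was lost without naive array 3, at 0.63 (limma, adjusted p = 0.0531), and with an intensity trend in the variance model (adjusted p = 0.0519). The call in plasma against memory cells was lost with arrays centred on bright genes, at -0.44 (limma, adjusted p = 0.0529).

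Cd81 kept its calls in germinal center cells with the actin ratio as a covariate, as did Bank1. The coreceptor partner Cr2, the complement receptor CD21, fell by 1.10 ± 0.16 in germinal center cells (limma, adjusted p = 0.000149) and fell by 5.91 ± 0.15 in plasma cells (adjusted p = 3.42e-12) against naive cells, from a mean intensity of 2932 to 1366 and 48.7. In plasma against naive cells Cr2 thus fell while Cd81 was at 0.20, and Cd9, another tetraspanin, rose by 1.54 ± 0.22 (limma, adjusted p = 9.04e-05) to 44.7 from a level above background on 2 of 3 naive arrays.

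The 250 bases before Cd81 are shown as those of the 1 gene of the 8 called higher in memory than in naive cells. Capitals mark matches to CCCNNGGG, the core recognized by EBF1, a factor of the B lineage, found at 219 to 212 and at 68 to 61 bases before the start. The window is chr7:143052500-143052749, plus strand, GRCm38.p6, from RefSeq.
Cd81: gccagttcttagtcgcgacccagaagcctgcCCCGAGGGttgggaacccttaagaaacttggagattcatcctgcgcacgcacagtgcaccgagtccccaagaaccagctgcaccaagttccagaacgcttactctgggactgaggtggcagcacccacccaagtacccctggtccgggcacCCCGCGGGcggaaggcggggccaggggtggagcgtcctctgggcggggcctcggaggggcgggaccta

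CCCNNGGG reads the same on both strands and occurs before 11.8% of the 32851 starts and before 2 of the 7 members with a window, Cd81 and Bank1. The level of Ebf1 itself was 2089 in naive and 2235 in memory cells, 747 in germinal center cells and 20.9 in plasma cells.

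Syk (chromosome 13, 52582610 to 52648792) encodes the kinase that binds the phosphorylated tails of CD79A and CD79B. Its brightest probe set read 4737, 3285 and 3767 on the naive arrays and 3347, 3517, 4000.5 and 3127 on the memory arrays. It read 1653, 1586 and 2823 on the germinal center arrays and 1861, 1574, 1819.8 and 1854 on the plasma arrays.

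All 7 germinal center and plasma arrays of Syk lay below all 7 naive and memory arrays, and germinal center and plasma arrays overlapped. Syk fell by 1.00 ± 0.21 in germinal center cells (limma, adjusted p = 0.00296) and fell by 1.13 ± 0.19 in plasma cells (adjusted p = 0.000361) against naive cells. It rose by 0.84 ± 0.19 in memory against germinal center cells (limma, adjusted p = 0.00537) and fell by 0.97 ± 0.18 in plasma against memory cells (adjusted p = 0.00056). Memory and naive cells differed by -0.16 (interval -0.57 to 0.26; limma, adjusted p = 0.778), and plasma and germinal center cells by -0.14 (interval -0.55 to 0.28; adjusted p = 0.695). The order was naive 3884, memory 3483, germinal center 1949 and plasma 1773, again with 2 pairs of neighbours that did not differ beyond their spread. With the actin covariate the germinal center calls were lost, at -0.50 against naive cells (limma, adjusted p = 0.379) and 0.32 for memory against germinal center cells (adjusted p = 0.61), while the plasma calls were kept.

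The other 3 probe sets of Syk did not all repeat this pattern. The second brightest read 489, 556 and 336 on the naive, 379, 221 and 327 on the germinal center, 154, 195, 151 and 189 on the plasma and 343, 412, 338 and 298 on the memory arrays, so only the plasma arrays stood apart from every other subset. Its fold change against naive cells was -0.58 in germinal center (limma, adjusted p = 0.102 with this probe set in place of the brightest) and -1.40 in plasma cells, and the difference between plasma and germinal center cells, -0.82, passed (adjusted p = 0.0125). The difference between memory and germinal center cells was 0.20 by this probe set (limma, adjusted p = 0.583), so that call was lost too. The third had a wide spread, from 80.8 to 295 on naive and from 171 to 683 on memory arrays, and fold changes against naive cells of -0.50 (germinal center), -1.83 (plasma) and 1.33 (memory). The fourth lay above background on 2 of 14 arrays. The 3 probe sets that were measured above background everywhere thus had their lowest mean in plasma cells, and they differed on where germinal center and memory cells lay. Of these 3, only the second passed between plasma and germinal center cells. The brightest was at -0.14 (limma, adjusted p = 0.695), and the third at -1.33 (limma over 45037 probe sets, adjusted p = 0.0757).

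**Figure D3:**
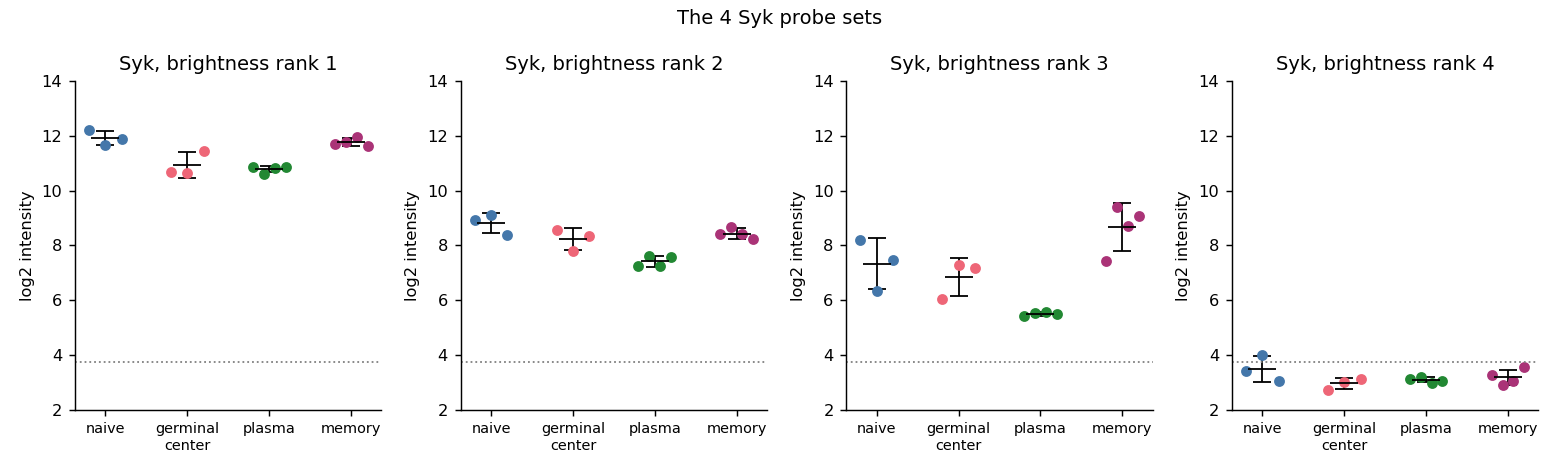
Log2 intensity (vertical axis, the same range in each panel) of the 4 probe sets of Syk, ordered by brightness, with 1 point per array, the subset mean as a wide bar and the SD as error bars, for 3 naive, 3 germinal center, 4 plasma and 4 memory arrays. The dotted line is the mean background of the 14 arrays; the fourth probe set lies near or below it, and in the first 3 the plasma arrays have the lowest mean.

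Btk (chromosome X, 134542334 to 134583628) encodes the TEC-family kinase that phosphorylates phospholipase C gamma 2. Its intensity was 189, 96.3 and 117 on the naive arrays and 36.6, 74.8 and 58.5 on the germinal center arrays. It was 97.1, 97.9, 121 and 55.8 on the plasma arrays and 106, 107, 105 and 94.2 on the memory arrays.

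The germinal center arrays of Btk lay below all naive and memory arrays, and plasma arrays overlapped with every other subset. Btk fell by 1.24 ± 0.31 in germinal center against naive cells (limma, adjusted p = 0.00991) and rose by 0.92 ± 0.29 in memory against germinal center cells (adjusted p = 0.032). The first call was lost without naive array 1, at -0.96 (limma, adjusted p = 0.0557), and with the actin covariate, at -1.43 (adjusted p = 0.0997). The second was lost in 8 of 26 alternatives, among them leaving out germinal center array 1, at 0.64 (adjusted p = 0.162). Plasma cells differed from naive cells by -0.52 (limma, adjusted p = 0.2), from germinal center cells by 0.72 (adjusted p = 0.0907; 0.0403 without germinal center array 2 and 0.0204 without plasma array 4) and from memory cells by -0.20 (adjusted p = 0.622). The order was naive 128.5, memory 102.9, plasma 89.4 and germinal center 54.3, and no neighbouring pair passed the test.

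Syk, Btk and Plcg2 are also expressed in myeloid cells, so myeloid markers are given beside them. The summed intensity of the 13 measured markers was 198 to 222 on the naive, 213 to 301 on the germinal center, 195 to 351 on the plasma and 561 to 866 on the memory arrays. Of the memory sum, Cd300lf made up the most, with a mean of 482. The plasma arrays carried low signal of Csf1r, 30.8 to 144.9, and of Lyz2, at 93.1 on plasma array 2. Adgre1 went the other way, with means of 51.2 in naive and 27.9 in plasma cells. Itgam, Cd14, S100a8 and S100a9 lay above background on no array. The part of these signals in the values of Syk, Btk and Plcg2 was not tested.

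Blnk (chromosome 19, 40928927 to 40994221) encodes the adaptor SLP-65, which SYK phosphorylates and on which BTK and phospholipase C gamma 2 assemble. It was the 1 gene of the 8 that stood highest in plasma cells. Its intensity was 5959, 5876, 6953 and 6218 on the plasma arrays and 4860, 4281 and 4666 on the naive arrays. It was 4305, 2711 and 4809 on the germinal center arrays and 3854, 4722, 4836 and 4396 on the memory arrays.

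All 4 plasma arrays of Blnk lay above the other 10 arrays, which overlapped among themselves. Blnk rose by 0.70 ± 0.17 in plasma against germinal center cells (limma, adjusted p = 0.00718) and by 0.49 ± 0.16 against memory cells (adjusted p = 0.0273). Against naive cells its fold change of 0.44 ± 0.17 did not pass (limma, adjusted p = 0.0684, interval 0.07 to 0.81), but it passed in 6 of 26 alternatives. These were centring on bright genes, at 0.68 (limma, adjusted p = 0.00226), array weights, only the 2 subsets compared, leaving out germinal center array 2 or 3, and the actin covariate. With the actin covariate it was at 0.62 (limma, adjusted p = 0.00538), and the difference from germinal center cells no longer passed, at 0.36 (adjusted p = 0.178). The call against memory cells was lost in 5 of 26 alternatives, among them centring arrays on the median of all genes, at 0.39 (limma, adjusted p = 0.133), and leaving out plasma array 3 or 4 or memory array 1 or 4. Germinal center and naive cells differed by -0.26 (interval -0.66 to 0.13; limma, adjusted p = 0.367), and memory and naive cells by -0.05 (interval -0.42 to 0.32). The order was plasma 6238, naive 4596, memory 4435 and germinal center 3829, and no neighbouring pair passed the test.

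The window before Blnk is printed as that of the gene highest in plasma cells. Capitals mark ATTTGCAT, the octamer bound by OCT1 and OCT2 and known from immunoglobulin promoters, at 130 to 123 bases before the start, and AGGAAGT at 202 to 196 bases. The window is chr19:40994222-40994471, minus strand, GRCm38.p6, from RefSeq.
Blnk: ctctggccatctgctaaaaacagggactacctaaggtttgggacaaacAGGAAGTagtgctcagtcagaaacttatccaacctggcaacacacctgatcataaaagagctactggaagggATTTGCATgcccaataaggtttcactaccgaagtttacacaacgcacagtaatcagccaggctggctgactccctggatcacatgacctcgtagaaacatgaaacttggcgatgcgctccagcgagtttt

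The octamer was searched on both strands and occurs before 1.60% of the 32851 starts and before 1 of the 7 members with a window. Whether these bases bear on the level of Blnk was not tested.

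Bank1 (chromosome 3, 136053363 to 136326141) encodes a B cell scaffold with ankyrin repeats that binds LYN and is linked to calcium release from the receptor. It had the largest fold changes of the 8 genes in germinal center and in plasma cells against naive cells. Its intensity was 8704, 6920.3 and 8152 on the naive arrays and 6626, 7699, 8262 and 7949 on the memory arrays. It was 1624, 1738 and 2639.8 on the germinal center arrays and 658, 411, 703.5 and 675 on the plasma arrays.

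Germinal center arrays lay below all naive and memory arrays, and plasma arrays below all germinal center arrays. Bank1 fell by 2.01 ± 0.22 in germinal center cells (limma, adjusted p = 1.15e-05) and fell by 3.72 ± 0.21 in plasma cells (adjusted p = 5.35e-09) against naive cells. It fell by 1.71 ± 0.21 in plasma against germinal center cells (limma, adjusted p = 1.91e-05) and fell by 3.67 ± 0.19 in plasma against memory cells (adjusted p = 2.29e-09), and rose by 1.96 ± 0.21 in memory against germinal center cells (adjusted p = 7.42e-06). Memory and naive cells differed by -0.05, with an interval of -0.49 to 0.39 (limma, adjusted p = 0.947). The order was naive 7889, memory 7608, germinal center 1953 and plasma 599, and in it the first pair alone did not differ beyond its spread. These calls were kept in every alternative tried, the actin covariate included.

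Plcg2 (chromosome 8, 117498275 to 117635142) encodes phospholipase C gamma 2, which cleaves the membrane lipid whose products release calcium and activate protein kinase C. Its intensity was 3222, 3262 and 2668 on the naive arrays and 2719.8, 2769.5 and 3771 on the germinal center arrays. It was 2700.6, 2056, 2184 and 2928 on the plasma arrays and 3771, 3785, 3910.0 and 3174 on the memory arrays.

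Plasma arrays of Plcg2 lay below the memory arrays and overlapped with the naive and germinal center arrays. It fell by 0.58 ± 0.15 in plasma against memory cells (limma, adjusted p = 0.00743), the 1 comparison of 6 that passed. Germinal center and naive cells differed by 0.01, with an interval of -0.36 to 0.38 (limma, adjusted p = 0.986), an interval that does not reach the fold changes of Cd79b and Syk in that comparison. Plasma and naive cells differed by -0.32 (interval -0.66 to 0.03; limma, adjusted p = 0.169), which passed with arrays centred on the median of all genes, at -0.47 (adjusted p = 0.0353), and memory and naive cells by 0.26 (interval -0.08 to 0.61). The order was memory 3648, germinal center 3051, naive 3038 and plasma 2441, and no neighbouring pair passed the test.

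The effect of the actin covariate on germinal center cells differed by gene. Of the 5 calls against naive cells, 2 were kept with it, those of Bank1 and Cd81, and of the 5 in memory against germinal center cells the same 2 genes were kept. The folds of Cd79b and Syk moved toward 0, to -0.72 and -0.50 against naive cells, while that of Btk went from -1.24 to -1.43, and in memory against germinal center cells from 0.92 to 1.12 (limma, adjusted p = 0.201), with its SE from 0.31 to 0.48 and from 0.29 to 0.48. Over all genes the calls for germinal center against naive cells went from 3542 to 1540. Without germinal center array 2, which had the highest ratio, 6 of the 8 genes were called against naive cells and 5 in memory against germinal center cells. The part of RNA quality, as read by the actin ratio, in the calls of Cd79b, Syk and Btk and that of the subset cannot be told apart. The GAPDH ratio, 8.23 to 10.9 in germinal center and 9.44 to 12.0 in naive arrays, overlapped between these subsets and was not used as a covariate.

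**Figure D4:**
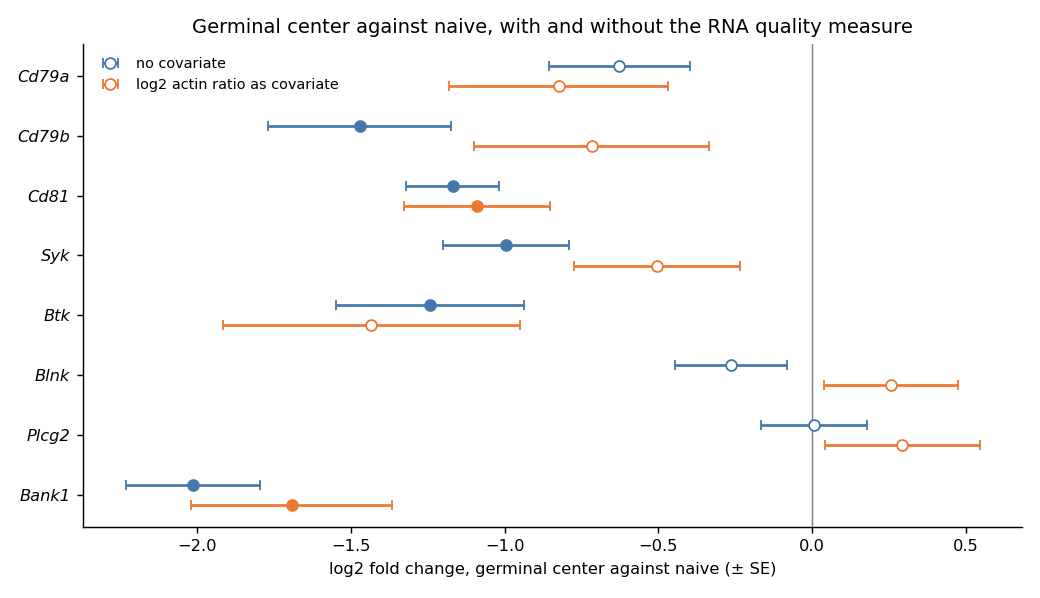
Log2 fold change of germinal center against naive cells (horizontal axis) for the 8 genes, with SE bars, in the fit without a covariate and in the fit with the log2 ratio of 3' to middle actin signal of each array. Filled points passed an adjusted p under 0.05: 5 genes without the covariate and 2 genes, Cd81 and Bank1, with it.

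For each gene the other genes with the most similar profile were found by the root mean square difference of centred log2 intensities over the 14 arrays, among 12319 genes above background on at least 3 arrays. Bank1 was nearest to Aff3 (0.26) and Gpr18 (0.314), whose means were 3287 and 4251 in naive cells and 245 and 357 in plasma cells. Cd79b was nearest to Zfp748 (0.217) and Ctsc (0.251), Syk to Gba2 (0.17) and Ciz1 (0.185), and Cd79a to Fuca1 (0.197) and Pstk (0.248). Cd81 was nearest to Man2b1 (0.242) and Tcta (0.304), and Btk to Wipi2 (0.281) and Tcaim (0.3). Blnk was nearest to Tent2 (0.151) and Lrrc47 (0.155), and Plcg2 to Hook2 (0.121) and Rpsa (0.162), which also varied little over the subsets. Hook2 had subset means of 12.5 to 17.4, near the background of 11.0 to 16.1, so its profile is that of a signal near background.

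Around the 8 genes, 78 of 92 listed partners of receptor signalling were measured. Against naive cells, 26 of them fell and 2 rose in germinal center cells, 41 fell and 7 rose in plasma cells, and 5 fell and 7 rose in memory cells. Over all genes, 11.1% fell and 8.37% rose in germinal center, 16.1% and 14.2% in plasma, and 3.26% and 2.31% in memory cells. Of the lists described below, the tyrosine kinases (1 of 7 lower), adaptors (3 of 18) and calcium branch (2 of 13) lay near the 11.1% in germinal center cells. The median fold changes of the 78 partners were -0.45, -0.999 and -0.0063. In memory against germinal center cells 29 rose and 5 fell, with a median of 0.49. In plasma against germinal center cells 33 fell and 13 rose, with a median of -0.15, and in plasma against memory cells 41 fell and 9 rose, with a median of -0.77. Over all genes the shares in these comparisons were 11% higher and 11.5% lower, 12.6% lower and 11.2% higher, and 16% lower and 17.2% higher in that order. With the actin covariate the 28 calls of germinal center against naive cells became 12 and the 34 of memory against germinal center cells became 14.

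**Figure D5:**
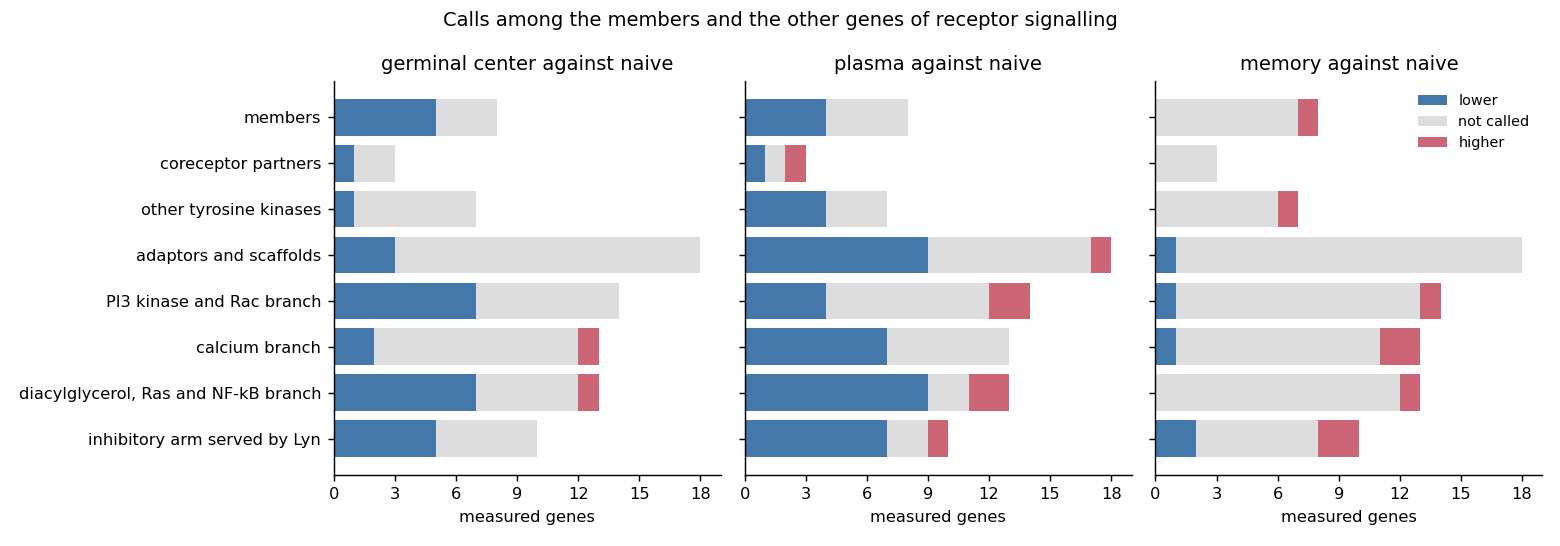
Number of measured genes (horizontal axis) called lower, not called, or called higher against naive cells in the limma fit, for the 8 genes described and for 7 lists of other genes of receptor signalling. Lower calls make up most of the calls in germinal center and plasma cells, with 26 and 41 of 78 listed genes. In memory cells 5 were lower and 7 higher. Over all genes 11.1% were lower and 8.37% higher in germinal center, 16.1% and 14.2% in plasma, and 3.26% and 2.31% in memory cells.

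Among 7 other tyrosine kinases, 1 fell in germinal center cells and 4 in plasma cells, and 1 rose in memory cells, against naive cells. Blk, a SRC-family kinase of B cells, fell by 1.83 ± 0.19 in germinal center cells (limma, adjusted p = 7.87e-06) and fell by 4.83 ± 0.18 in plasma cells (adjusted p = 1.14e-10). Tec, the founding kinase of the family of BTK, fell by 2.82 ± 0.27 in plasma cells (limma, adjusted p = 1.26e-06), where Btk was at -0.52 and did not pass. Yes1, another SRC-family kinase, rose by 0.92 ± 0.17 in memory cells, to a mean intensity of 36.9.

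Of 18 adaptors and scaffolds, 3 fell in germinal center cells, 9 fell and 1 rose in plasma cells, and 1 fell in memory cells. Sla, which encodes the adaptor SLAP, fell by 4.28 ± 0.40 in germinal center cells (limma, adjusted p = 2.68e-06), from 1314 to 67.9. Pik3ap1, which encodes BCAP, the adaptor that recruits PI3 kinase to the receptor, fell by 4.37 ± 0.16 in plasma cells (limma, adjusted p = 1.17e-10), from 995 to 48.3, and Stap1 fell by 3.44 ± 0.24. Blnk is an adaptor too, and in plasma against naive cells it was at 0.44. Sh3bp2 fell by 0.94 in germinal center cells, Nck2 fell by 1.20 in memory cells, and Shc1 rose by 0.66 in plasma cells.

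Of 14 genes of the PI3 kinase and Rac branch, 7 fell and 0 rose in germinal center cells, 4 fell and 2 rose in plasma cells, and 1 fell and 1 rose in memory cells. Vav3, an exchange factor for Rac, fell by 2.58 ± 0.32 in germinal center cells, where it was above background on 2 of 3 arrays, and fell by 1.84 ± 0.30 in memory cells. Pdpk1, a kinase that activates AKT, fell by 3.12 ± 0.97 in germinal center cells, with array values of 9.88, 209 and 554 against 891, 669.5 and 1256 on the naive arrays (limma, adjusted p = 0.0356). The first of these germinal center values was below background, so the size of this fold rests on that array. Pik3cd, the catalytic subunit p110 delta, rose by 3.70 ± 0.80 in plasma cells (limma, adjusted p = 0.00247), with array values of 248, 5673, 2667 and 595, and Pik3r5, a regulatory subunit, by 1.89 ± 0.22 in plasma and 1.58 ± 0.22 in memory cells. Vav2 fell by 1.99 and Dock2 fell by 1.45 in plasma cells.

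In the calcium branch behind Plcg2, 13 genes were measured: 2 fell and 1 rose in germinal center cells, 7 fell and 0 rose in plasma cells, and 1 fell and 2 rose in memory cells. The gene that rose in germinal center cells, named after its values were seen since its arrays overlapped, was Orai2, a calcium channel subunit, at 0.97 ± 0.23 (limma, adjusted p = 0.00856). Nfatc1, a transcription factor released by calcineurin, fell by 1.80 ± 0.36 in germinal center cells and fell by 4.24 ± 0.34 in plasma cells (limma, adjusted p = 2.14e-07). Plcg1, the paralog of Plcg2, fell by 2.62 ± 0.27 in plasma cells (limma, adjusted p = 3.59e-06), to a mean of 26.5, where Plcg2 was at -0.32 and did not pass. Itpr2, a calcium channel of the endoplasmic reticulum, and Nfatc2 rose in memory cells by 1.12 ± 0.23 and 1.13 ± 0.20. Ppp3ca, the catalytic subunit of calcineurin, fell by 1.33 in germinal center cells and fell by 0.93 in memory cells.

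Of 13 genes of the diacylglycerol, Ras and NF-kB branch, 7 fell and 1 rose in germinal center cells, 9 fell and 2 rose in plasma cells, and 0 fell and 1 rose in memory cells. Prkcb, the beta isoform of protein kinase C, fell by 4.54 ± 0.26 in plasma cells (limma, adjusted p = 9.4e-09), and Rasgrp1, an activator of Ras, fell by 5.52 ± 0.19 (adjusted p = 6.91e-11). Bcl10, a signalling adaptor on the way to NF-kB, fell by 1.75 ± 0.33 and Rasgrp2 fell by 1.56 ± 0.17 in germinal center cells. Malt1, a protease that binds BCL10, rose by 1.48 ± 0.27 in memory cells (limma, adjusted p = 0.00453), from 796 to 2220.4. Map3k7, which encodes TAK1, rose in germinal center cells by 0.49 and in plasma cells by 0.86, and Map2k2 rose in plasma cells by 0.99.

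The inhibitory arm that LYN serves had 10 measured genes: 5 fell and 0 rose in germinal center cells, 7 fell and 1 rose in plasma cells, and 2 fell and 2 rose in memory cells. Cd22, a sialic acid lectin that recruits the phosphatase SHP-1, fell by 7.34 ± 0.22 in plasma cells (limma, adjusted p = 2.04e-11), from 4930.1 to 30.5. Cd72, another inhibitory coreceptor, fell by 2.55 ± 0.18 in germinal center cells, fell by 7.02 ± 0.17 in plasma cells and fell by 1.34 ± 0.17 in memory cells, and on the plasma arrays it was above background on 2 of 4. Ptpn22, a phosphatase of SRC-family kinases, fell by 2.81 ± 0.27 in germinal center cells, where 2 of 3 arrays were above background, and rose by 1.56 ± 0.26 in plasma and 1.48 ± 0.26 in memory cells. Fcgr2b, the inhibitory Fc receptor, rose by 0.76 ± 0.18 in memory cells (limma, adjusted p = 0.0276), and Pirb fell by 0.74.

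Of 3 measured coreceptor partners, 1 fell in germinal center cells, 1 fell and 1 rose in plasma cells, and 0 were called in memory cells. In plasma cells 4 of the 8 genes described passed against naive cells with fold changes between -3.72 and -1.13, while Btk, Blnk, Plcg2 and Cd81 did not pass, with intervals of -1.14 to 0.09, 0.07 to 0.81, -0.66 to 0.03 and -0.11 to 0.50. Cd79a, measured near background, was among the 4 that passed. The lists were chosen with earlier results of these arrays known, so their counts are descriptions of these 78 genes.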

How the data were processed

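The deposited table holds 1 linear intensity per probe set and array for 14 arrays. RMA is named in the submitters' processing notes; its version and the chip definition are not given in the sources used here. RMA carries out background correction, normalization between arrays and summary over probes, which compresses differences of dim probe sets. The deposited intensities were turned to log2 values without a pseudocount or further scaling. Of 45037 non-control probe sets, 34945 carried 1 gene symbol, 932 several and 9160 none; 34741 were matched by Entrez number to the RefSeq table and 0 symbols changed. Each of 18193 genes took its brightest probe set by mean log2 intensity. Background was the brightest of 27 unspiked bacterial controls. A limma 3.58.1 fit (R 4.3.3) took all 14 arrays, with 1 mean per subset, 10 residual degrees of freedom and eBayes without a trend; tests were two-sided, with Benjamini-Hochberg adjustment inside each of 6 comparisons. The fit was tested on simulated data. The members and gene lists were chosen with earlier results of these data known. All members are described in every comparison. Of each list, up to 2 highest and 2 lowest called genes without overlap between arrays were named in each comparison with naive cells. Deviations from the subset means correlated at -0.22 to 0.25 over 19 pairs of arrays with equal replicate number, 6 of them over 0.1. Pairs of arrays with other numbers gave -0.29 to 0.31. With so few arrays per subset, these values cannot exclude a shared animal or day. The sources used here give no batch or scan time. The number of arrays limits the precision. Sequences are RefSeq windows of 250 bases. Alternatives changed the scaling, filter, floor, gene unit, variance model, arrays, replicate block and actin covariate. Python 3.11.15, pandas 2.3.3 and matplotlib 3.10.9 drew the figures.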

Additional observations from a re-analysis of the deposited data

Results flagged for a closer look

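Among the 22 subsets of 4 arrays tested over the probe sets of the 8 genes, 3 held an array far from the others, by the share of the subset's whole log2 range that separated it from its nearest neighbour; chance alone gives about 5% of such groups. Bank1 on plasma array 2 was at 411 against 658 to 703.5 on the other 3, with a share of 0.876. Syk on the same array, by its brightest probe set, was at 1574 against 1819.8 to 1861, with a share of 0.866. Btk on memory array 4 was at 94.2 against 105 to 107, with a share of 0.837. Plasma array 2 also had the highest background of the 14 arrays, 16.1. Without any 1 array, Bank1 and Syk kept their calls in plasma against naive and memory cells.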

How the results depend on the processing

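Every fold change called for the 8 genes kept its sign in all 26 alternatives, and 1189 of 1248 recomputed folds kept direction and side of the threshold. Of the others, 25 lost a call, 16 gained one and 18 changed sign, the last all among folds that were not called. The cause of these changes was not tested unless said. The 1248 folds are not separate trials, since many could not change. The filter, the intensity trend, the fit of only the 2 subsets compared, and leaving out an array of another subset do not alter a fold. The alternatives that use other probe sets alter only Syk, the 1 gene of the 8 with several. With the actin covariate, called members went to 2 for both germinal center against naive and memory against germinal center cells, listed partners to 12 and 14, and all genes to 1540 and 1779; the share of all calls that were higher went to 53.1% and 35.6%. The covariate turned Blnk to 0.26 and -0.33 in these comparisons and Plcg2 to -0.043 in the second. Memory against naive cells gave 596 calls over all genes with a floor of 16 and 626 with second brightest probe sets, against 1014; the call of Cd81 was lost with an intensity trend, leaving 0 members. The second brightest probe sets gave 29 called partners for plasma against germinal center cells, against 46. Memory against naive folds turned for Bank1 (0.0012 with quantile normalization, 0.13 centred on bright genes), Syk (0.027 centred on bright genes, 0.12 as the mean of probe sets) and Blnk (0.13 centred on bright genes), and Plcg2 in germinal center against naive cells was -0.13 centred on all genes. Leaving out each array in turn, memory against naive cells gave 603 to 1273 calls over all genes, with fewest without naive array 2 and 624 without naive array 3, and 0 to 1 called members, with folds of -0.15 to 0.019 for Bank1 and -0.10 to 0.016 for Blnk. Other folds that turned ranged from -0.15 to 0.089 for Plcg2 in germinal center against naive cells, -0.037 to 0.38 for Blnk in memory against germinal center cells, -0.58 to 0.040 for Cd79b and -0.28 to 0.13 for Syk in plasma against germinal center cells, and -0.35 to 0.024 for Btk in plasma against memory cells. The labels do not say whether arrays of equal replicate number share an animal or day. With a replicate block, 5 (germinal center), 4 (plasma) and 1 (memory) members were called against naive cells, as without it, and over all genes 3412, 5076 and 872. Signal over background limits Cd79a and the fourth Syk probe set.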
